A study of Mus musculus with 6 samples.

Results

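The interleukin-1 family was described here through 8 genes measured in ileal mucosa of mice with and without the DUOX maturation factors: the cytokines Il1a, Il1b, Il18 and Il33, the soluble antagonists Il1rn and Il18bp, and the receptors Il1r1 and Il1r2. Members were chosen by gene symbol, as every probe set whose annotated symbol is exactly one of these names, which gave 11 probe sets of 45037 and 8 genes of 18193. The family itself was selected on values of the genotype comparison in these same arrays, above all those of Il1b and Il1rn, so the differences of its members between genotypes are given as a description and not as a test. The 6 arrays held terminal ileum RNA of 3-month-old female mice of strain 129S6. The 3 wt (wild-type) pools came from littermates housed with the duoxa-/- (Duoxa-/-) mice of the 3 other pools, whose DUOX maturation genes are disrupted. The dual oxidases need these factors to reach the cell surface, where they release hydrogen peroxide. Each pool combined the RNA of 2 to 3 animals of 1 genotype from 1 cage, and each of the 3 cages was 1 litter that gave 1 pool per genotype.

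Interleukin-1 alpha and beta signal through the receptor IL1R1, which acts with an accessory chain and the adaptor MYD88 to activate NF-kB. IL1RN, the interleukin-1 receptor antagonist, occupies the same receptor without signalling, and IL1R2 is a decoy that captures the cytokine. Interleukin-18 and interleukin-33 are relatives with receptors of their own, and IL18BP neutralises interleukin-18 in solution. In the gut, myeloid cells are a known source of interleukin-1 beta, the epithelium of interleukin-18, and stromal cells of interleukin-33. Interleukin-1 beta and interleukin-18 are made as precursors that caspase-1 cleaves, so transcript levels do not report the active cytokine.

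The median log2 value of an array lay between 6.55 and 6.60, and any pair of arrays correlated with r of 0.994 to 0.998 across probe sets. Their number limits the precision of every value. Duoxa2 read 8.81, 8.36 and 7.24 in the wild-type pools of cages 1, 2 and 3 and 5.90, 5.55 and 5.92 in the Duoxa-/- pools, so its groups did not overlap. Duoxa1, by its probe set of highest mean, read 6.41, 6.26 and 6.25 in the wild-type pools. In the Duoxa-/- pools it read 6.22, 5.92 and 6.33, so its groups overlapped, with a log2 difference of -0.15 (SE 0.12). Whether either probe set lies in a disrupted part of its gene was not tested. All 9 epithelial markers and all 5 markers of ileal enterocytes reached the median of all probe sets (6.58), with Fabp6, the ileal bile acid binding protein, at a mean of 14.7. In whole mucosa, fewer cells of a type and less RNA per cell cannot be told apart.

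The promoters of Il1b and Il1rn are shown because these were the members whose genotypes did not overlap. That of Il1a is shown because Il1a, also a member, lies next to Il1b among protein-coding genes on the chromosome. Sequences are from RefSeq (GRCm38.p6), run 5′ to 3′ and end at the base before an annotated transcript start. All 8 members matched that table, and Il1rn has 3 annotated starts, of which the first and the third are shown. Capitals mark matches on either strand to TATAAA, the core of the TATA box, to TGANTCA, the motif of AP-1, or to GGGNNTTTC, a shortened NF-kB motif.
Il1b (chr2:129371140-129371259, minus strand): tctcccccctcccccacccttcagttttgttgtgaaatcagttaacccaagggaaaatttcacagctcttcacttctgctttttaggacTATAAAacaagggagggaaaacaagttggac
Il1a (chr2:129309973-129310092, minus strand): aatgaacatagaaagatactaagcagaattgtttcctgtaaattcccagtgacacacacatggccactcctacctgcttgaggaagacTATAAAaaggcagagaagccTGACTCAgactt
Il1rn, start 1 (chr2:24336610-24336859, plus strand): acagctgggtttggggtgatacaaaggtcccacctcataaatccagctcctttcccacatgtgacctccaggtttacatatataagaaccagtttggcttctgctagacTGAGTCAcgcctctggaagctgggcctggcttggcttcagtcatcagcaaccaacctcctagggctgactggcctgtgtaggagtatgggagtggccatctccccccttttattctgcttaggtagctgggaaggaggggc
Il1rn, start 3 (chr2:24345251-24345370, plus strand): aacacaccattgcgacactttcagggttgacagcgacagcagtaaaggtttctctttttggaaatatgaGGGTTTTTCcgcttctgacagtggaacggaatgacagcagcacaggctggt

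The TATA match of Il1b lay 31 to 26 bases before the start, and that of Il1a 32 to 27 bases before it. Il1a also held an AP-1 match 12 to 6 bases before its start. Il1rn held an AP-1 match 141 to 135 bases before its first start and an NF-kB match 51 to 43 bases before the third one. Among 32851 promoters of the table, searched over the same 250 bases, 12.4% held the TATA motif, 6.75% the AP-1 motif and 3.72% the NF-kB motif. Il18 held a TATA match on the opposite strand 175 to 170 bases before its start, and Il33 held 1 before each of its 2 starts. The promoters of Il18bp, Il1r1 and Il1r2 and the second one of Il1rn held 0 matches in these windows. The matches did not overlap one another. A match is a match of letters only, and the probe sets are not tied here to any of the Il1rn starts.

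By the probe set of highest mean, 7 of the 8 genes were higher in Duoxa-/- pools, where 8396 of 18193 genes were. Among the 7 were Il18bp, with a difference of 0.00020, and Il18 and Il33, whose sign rested on a single litter each. The median log2 difference (Duoxa-/- minus wild type) of the 8 genes was 0.19, against -0.01 over all genes. In 2 of them, Il1b and Il1rn, all 3 Duoxa-/- pools lay above all 3 wild-type pools, where 5.08% of all genes did so, and in 0 of them all lay below, where 6.46% of all genes did. The same 2 genes were higher in all 3 cages (13.5% of all genes) and 0 were lower in all 3 (16.6% of all genes). With limma, 0 members passed at an adjusted p under 0.05, and 0% of all genes did. At an unadjusted p under 0.05 there were 1006 of 18193 genes, and 1166 with cage as a block, which called 0 genes as well. All members but Il1a, at a mean of 5.05, reached the median of all probe sets, and RMA compresses differences of dim probe sets.

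**Figure D1:**
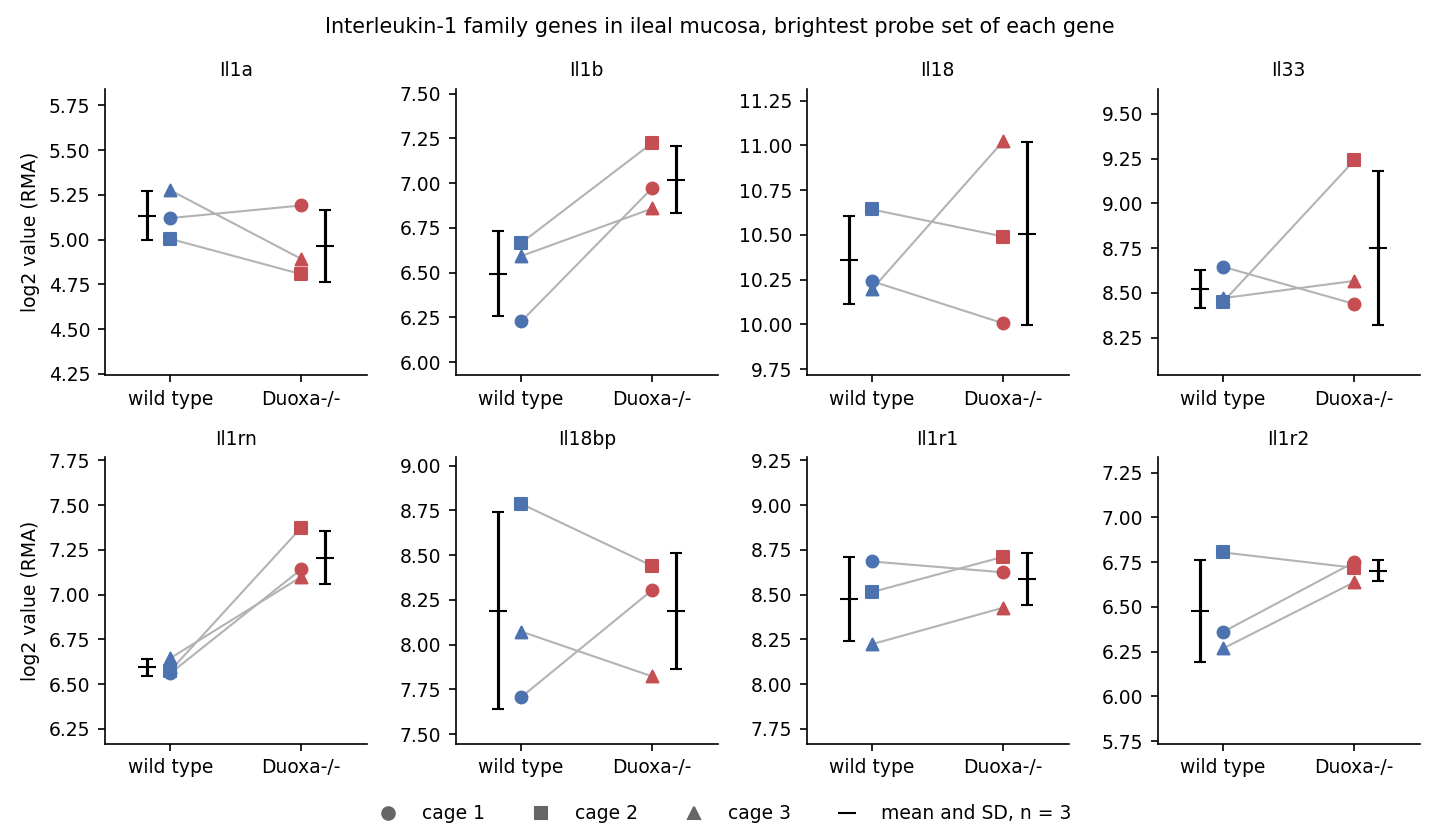
Log2 value of each of the 8 genes (vertical axis, log2 RMA units, a window of the same height in every panel) in the wild-type and Duoxa-/- pools, with lines joining the pools of a cage and bars for the mean and SD over 3 pools. The pools of Il1b and Il1rn separate by genotype, Il18 and Il33 each have 1 high Duoxa-/- pool, and the other genes overlap.

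Il1b, the inducible interleukin-1 beta gene, read 6.23, 6.67 and 6.59 in the wild-type pools of cages 1, 2 and 3 and 6.97, 7.22 and 6.86 in the Duoxa-/- pools. The lowest Duoxa-/- pool, of cage 3, was above the highest wild-type pool, of cage 2. The means were 6.50 ± 0.24 (SD, n = 3) and 7.02 ± 0.19 (SD, n = 3), a log2 difference of 0.52 (SE 0.14), or 1.44-fold. Within cages the difference was 0.75, 0.56 and 0.27 for cages 1, 2 and 3, so the size varied between litters while the direction was shared.

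Il1a, the other agonist of the same receptor, did not share this direction. It read 5.12, 5.0 and 5.28 in the wild-type pools of cages 1, 2 and 3 and 5.19, 4.81 and 4.89 in the Duoxa-/- pools, so the groups overlapped. Its log2 difference was -0.17 (SE 0.12), with 0.07, -0.20 and -0.38 in cages 1, 2 and 3. Its level was the lowest relative to the array median among the probe sets that stand for members, so a small change could be missed.

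Il18, the epithelial cytokine of the family, read 10.24, 10.64 and 10.20 in the wild-type pools and 10.01, 10.49 and 11.02 in the Duoxa-/- pools. The Duoxa-/- pool of cage 3 was the highest of the 6 and that of cage 1 the lowest. The difference was -0.23, -0.15 and 0.83 in cages 1, 2 and 3, with a mean of 0.15 (SE 0.24). Without cage 3 it was -0.19, so the sign of the mean rested on that litter.

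Il33, an alarmin held in cell nuclei, read 8.65, 8.45 and 8.47 in the wild-type pools and 8.44, 9.24 and 8.57 in the Duoxa-/- pools. The Duoxa-/- pool of cage 2 stood apart from the other 5 pools. The mean difference was 0.23 (SE 0.19), and without cage 2 it was -0.06. The within-cage differences were -0.21, 0.79 and 0.10 in cages 1, 2 and 3.

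Il1rn, the receptor antagonist, had the largest difference of the family by its brightest probe set, but not by the mean of its probe sets (0.43, against 0.52 for Il1b) or by either of the other 2. By its probe set of highest mean (1451798_at) it read 6.56, 6.57 and 6.64 in the wild-type pools of cages 1, 2 and 3 and 7.14, 7.37 and 7.10 in the Duoxa-/- pools. The wild-type pools lay close together, and every Duoxa-/- pool was well above them. The means were 6.59 ± 0.05 (SD, n = 3) and 7.21 ± 0.15 (SD, n = 3), a log2 difference of 0.61 (SE 0.09), or 1.53-fold. The within-cage differences were 0.58, 0.80 and 0.46. By size of difference Il1rn, by 1451798_at, stood at rank 36 and Il1b at rank 56 of 18193 genes, in either direction. The family was chosen on these same values, so the ranks are a description only. Among 45037 probe sets 1451798_at stood at rank 70. The other probe sets of Il1rn, 1423017_a_at and 1425663_at, stood at ranks 713 and 1265.

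The 3 probe sets of Il1rn did not give the same size. Probe set 1425663_at read 6.79, 6.73 and 6.63 in the wild-type pools and 6.91, 7.39 and 6.82 in the Duoxa-/- pools, a difference of 0.32 (SE 0.14) that was mainly that of cage 2 (0.66, against 0.11 in cage 1 and 0.19 in cage 3). Its groups did not overlap. Probe set 1423017_a_at read 6.50, 5.94 and 6.34 in the wild-type pools and 6.38, 6.74 and 6.77 in the Duoxa-/- pools. Here the groups overlapped in cage 1, whose difference was -0.12, against 0.79 in cage 2 and 0.43 in cage 3, with a mean of 0.37 (SE 0.16). Averaged over its probe sets, Il1rn differed by 0.43. Counted by probe set, 3 of the 11 of the family, 2 of Il1rn and the single one of Il1b, had all Duoxa-/- pools above all wild-type pools, where 6.25% of all probe sets did. Which transcript each probe set reads was not tested.

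**Figure D2:**
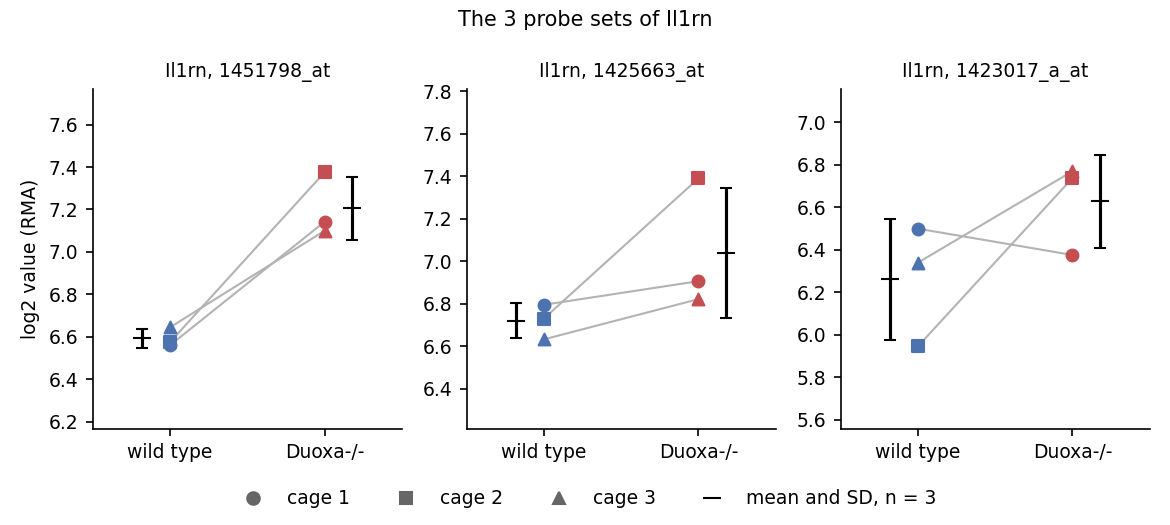
Log2 value (vertical axis, log2 RMA units) of each Il1rn probe set in the wild-type and Duoxa-/- pools, with lines joining the pools of a cage and bars for the mean and SD over 3 pools. The Duoxa-/- pool is the higher one in every cage for 1451798_at and 1425663_at, while for 1423017_a_at cage 1 differs by -0.12.

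By probe set 1451798_at, the antagonist Il1rn differed between genotypes by an amount similar to that of the agonist Il1b (0.61 and 0.52). By 1425663_at and 1423017_a_at it differed by less than Il1b (0.32 and 0.37). The next values use 1451798_at, and the sign of their mean change depends on this choice. The within-array value Il1rn minus Il1b was 0.33, -0.09 and 0.05 in the wild-type pools of cages 1, 2 and 3 and 0.17, 0.15 and 0.24 in the Duoxa-/- pools, and only its change between arrays can be read. That change was -0.16, 0.24 and 0.19 in cages 1, 2 and 3, with a mean of 0.09 ± 0.22 (SD over 3 cages), so it was smaller than its spread between cages.

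Il18bp, the interleukin-18 antagonist, did not separate the genotypes. It read 7.71, 8.79 and 8.07 in the wild-type pools of cages 1, 2 and 3 and 8.30, 8.44 and 7.82 in the Duoxa-/- pools. The lowest and the highest pools were both wild type, and the mean log2 difference was 0.00020 with a 95% limma interval of -0.61 to 0.61. Changes of up to about that size in either direction lay within this interval. The interval is for this gene alone, so it sets no limit above which limma would call a change. Within cages the difference was 0.60, -0.35 and -0.25. The mean of 7 T cell markers relative to the 6 arrays was -0.25, 0.30 and 0.06 in the wild-type pools of cages 1, 2 and 3 and 0.15, -0.16 and -0.10 in the Duoxa-/- pools. Among Duoxa-/- pools this T cell mean was lowest in cage 2, where Il18bp was highest. Single T cell markers did not all follow that mean, since Cd3e and Cd4 were highest in the wild-type pool of cage 1 among wild-type pools. The mean of the macrophage and monocyte markers was -0.002, 0.11 and -0.08 in the wild-type pools. In the Duoxa-/- pools it was 0.08, 0.06 and -0.17. The part of these cells in the Il18bp values was not tested.

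Il1r1, the signalling receptor, read 8.69, 8.51 and 8.22 in the wild-type pools of cages 1, 2 and 3 and 8.62, 8.71 and 8.43 in the Duoxa-/- pools, a difference of 0.11 (SE 0.13) with overlapping groups. Cage 3 had the lowest pool of each genotype. Without the wild-type pool of cage 3 the difference was -0.01. Its other probe set (1459777_at) read between 3.47 and 3.57 in all 6 pools, which is dim for these arrays, and differed by -0.05 (SE 0.08).

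Il1r2, the decoy receptor, read 6.36, 6.80 and 6.27 in the wild-type pools of cages 1, 2 and 3 and 6.75, 6.72 and 6.64 in the Duoxa-/- pools. The Duoxa-/- pools were close together, while the wild-type pool of cage 2 was the highest of all 6. The difference was 0.22 (SE 0.14) in the mean and 0.39, -0.09 and 0.37 in cages 1, 2 and 3.

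Differences between litters did not enter the choice of the members and were compared by the F-test of limma, fitted beside a genotype term. With this test 0 of the 8 members passed over all genes, where 0.011% of all genes (2 of 18193) were called. At an unadjusted p under 0.05 there were 2 members, Il18bp and Il1r1, and 1130 of 18193 genes. Il18bp had cage means of 8.01, 8.61 and 7.95 in cages 1, 2 and 3 (adjusted p = 0.780). Il1r1 had cage means of 8.66, 8.61 and 8.33 (adjusted p = 0.798). Il1rn varied least by this test, with cage means of 6.85, 6.97 and 6.87 (adjusted p = 0.925), and Il1b had means of 6.60, 6.95 and 6.73 (adjusted p = 0.844).

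The rest of the pathway was followed through 5 lists by role, of which 55 genes were measured. Over these 0 were called higher and 0 lower by limma between genotypes, against 0% of all genes, and 4 of the 55 had an unadjusted p under 0.05, where 1006 of 18193 genes did. Their median log2 difference was 0.02, against -0.01 over all genes. Of the 55 genes, 2 had all Duoxa-/- pools above all wild-type pools, against 5.08% of all genes, and 1 had all below, against 6.46%. Neither of these counts of separated groups exceeded its background share. In the F-test between cages 0 of the 55 passed, and 4 had an unadjusted p under 0.05. Genes of these lists are given as values that did not pass.

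The other ligands of the family, interleukin-36 cytokines and relatives, were dim, and 0 of 5 reached the median of all probe sets. Their median difference was -0.06, with 1 higher and 4 lower. Il1f9, which encodes interleukin-36 gamma, read 5.42, 5.30 and 4.96 in the wild-type pools and 4.98, 4.78 and 4.89 in the Duoxa-/- pools, a difference of -0.34 (SE 0.12, limma adjusted p = 0.811). Its groups overlapped at the wild-type pool of cage 3. Il1f8 and Il1f6, which encode interleukin-36 beta and alpha, differed by -0.07 and -0.06.

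Of the other receptors 7 were measured, 5 higher and 2 lower, with a median of 0.02. Sigirr, an inhibitory receptor of the family, read 9.49, 9.51 and 9.55 in the wild-type pools and 9.34, 9.31 and 9.42 in the Duoxa-/- pools. All Duoxa-/- pools lay below all wild-type pools, by -0.16 (SE 0.07, limma adjusted p = 0.811). Il18rap, the accessory chain for interleukin-18, differed by -0.10 and Il1rapl2 by 0.07. Il1rap, the accessory chain that IL1R1 needs to signal, differed by 0.02 (SE 0.10).

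Among 16 adaptors, kinases and NF-kB proteins 9 were higher and 7 lower, with a median of 0.01. Map3k7, the TAK1 kinase downstream of the receptor, read 8.58, 8.42 and 8.46 in the wild-type pools and 8.61, 8.76 and 8.68 in the Duoxa-/- pools, so its groups did not overlap, with a difference of 0.20 (SE 0.08, limma adjusted p = 0.811). Irak3, which restrains the pathway, differed by 0.21 (SE 0.15) and was higher in all 3 cages. Peli1, a ubiquitin ligase that acts on IRAK kinases, differed by -0.11 and the adaptor Myd88 by -0.03 (SE 0.09).

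Of 12 genes of cytokine maturation and release, 7 were higher and 5 lower, with a median of 0.02. Nlrp3, an inflammasome sensor, differed by -0.21 (SE 0.10) and was lower in all 3 cages. Aim2, a sensor of cytosolic DNA, differed by 0.21 (SE 0.13). Casp4, the caspase of the non-canonical inflammasome, differed by 0.27 (SE 0.21), with 1.05 in cage 1 against -0.16 and -0.07 in cages 2 and 3. Casp1, which cleaves the interleukin-1 beta and interleukin-18 precursors, differed by 0.04 (SE 0.11).

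Genes known to be induced by interleukin-1 had the highest median of the 5 lists, 0.10, with 12 of 15 higher and 3 lower. By cage, that median came to 0.34, 0.04 and -0.09, so the direction was not shared by the litters. Ccl20, a chemokine made by the epithelium over lymphoid follicles, read 7.76, 8.07 and 7.89 in the wild-type pools and 8.90, 8.49 and 8.20 in the Duoxa-/- pools. These groups did not overlap, and the difference was 0.62 (SE 0.17, limma adjusted p = 0.811). Ptgs2, the inducible cyclooxygenase, was higher in all 3 cages by 0.10, 0.70 and 0.33, with a mean of 0.38 (SE 0.15). Tnf differed by 0.17 (SE 0.14).

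**Figure D3:**
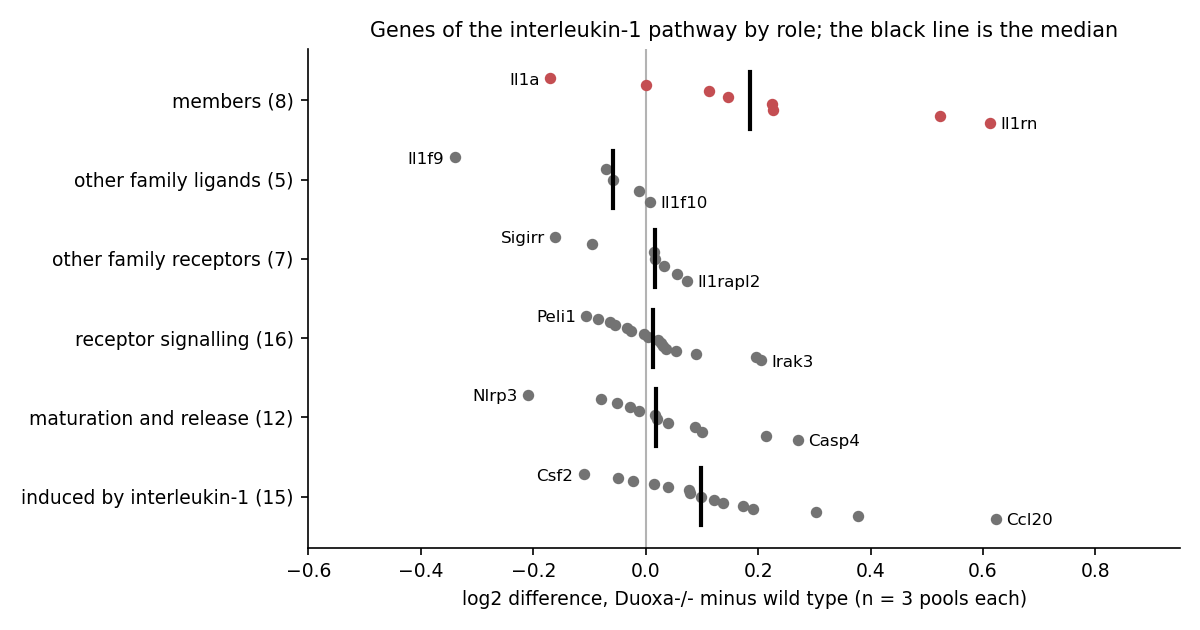
Log2 difference, Duoxa-/- minus wild type (horizontal axis), of each measured gene of the family and of the 5 pathway lists, 1 point a gene, with the number of genes beside each name and the median as a black line. Il1rn at 0.61 and Ccl20 at 0.62 are the highest points, and the list medians lie between -0.06 and 0.10 against 0.19 for the 8 family genes.

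Markers of cells that can make interleukin-1 were compared across the same pools. Of 11 macrophage and monocyte markers 6 were higher in Duoxa-/- pools. Groups that did not overlap were seen for 0 of them, against 5.08% of all genes above and 6.46% below. The mean of the 11 markers relative to the 6 arrays ranged from -0.08 to 0.11 in wild-type pools and from -0.17 to 0.08 in Duoxa-/- pools. Of these, 10 were at least as bright as the median probe set, and Itgam was not (mean 5.45).

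Neutrophil markers were dim, with 0 of 10 reaching the median of all probe sets and the granule genes Elane and Mpo at means of 4.67 and 5.43. Of the 10, 3 were higher in Duoxa-/- pools and 7 lower. In 1, S100a9, all Duoxa-/- pools lay above all wild-type pools, where 5.08% of all genes did so. The mean relative value of the list ranged from -0.07 to 0.00 in wild-type pools. It was -0.02, 0.20 and -0.08 in the Duoxa-/- pools of cages 1, 2 and 3. The calprotectin genes S100a8 and S100a9 are named after their values were seen and were not typical of the list. S100a9 read 4.94, 5.04 and 5.13 in the wild-type pools and 5.23, 6.48 and 5.30 in the Duoxa-/- pools. S100a8 read 5.48, 5.78 and 5.31 in the wild-type pools and 5.78, 6.86 and 5.68 in the Duoxa-/- pools. Both were highest in the Duoxa-/- pool of cage 2, the pool in which Il1b, Il33 and 2 of the Il1rn probe sets also peaked. Without that pool the difference was 0.42 for Il1b, 0.53 for Il1rn by 1451798_at and -0.02 for Il33. For 1425663_at, the other Il1rn probe set that peaked there, the difference was 0.66 in cage 2. It was 0.11 in cage 1 and 0.19 in cage 3. The part of neutrophils in these values was not tested.

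Other marker lists also differed between pools. Of 8 smooth muscle markers 0 had a higher mean in Duoxa-/- pools, but the direction was not shared by the litters. The mean relative value of the list was 0.48, -0.15 and 0.07 in the wild-type pools of cages 1, 2 and 3. In the Duoxa-/- pools it was -0.36, 0.08 and -0.12. In cage 2 all 8 markers were higher in the Duoxa-/- pool, by 0.002 (Smtn) to 0.64 (Actg2), and Il1b was higher there too, by 0.56. The highest value of the list was in the wild-type pool of cage 1, where Il1b had its lowest value. Without the wild-type pool of cage 1 the difference was 0.39 for Il1b and 0.60 for Il1rn by 1451798_at. Fibroblast markers ranged from -0.17 to 0.29 in wild-type and from -0.15 to 0.04 in Duoxa-/- pools, and epithelial markers from -0.02 to 0.02 over all pools. Mast cell markers, of which 2 of 7 reached the median of all probe sets, ranged from -0.58 to 0.88 in wild-type and from -0.66 to 0.21 in Duoxa-/- pools, with 0 of 7 higher in Duoxa-/- pools. Endothelial markers were higher in 5 of 6 and B cell markers in 4 of 6. All Duoxa-/- pools lay above all wild-type pools for Cldn5 (endothelium), Cr2 (B cell) and Cdx2 (epithelium), as for 5.08% of all genes. For Hdc (mast cell) and Dpt (fibroblast) all lay below, as for 6.46% of all genes. The part of these cells in the family's values was not tested.

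**Figure D4:**
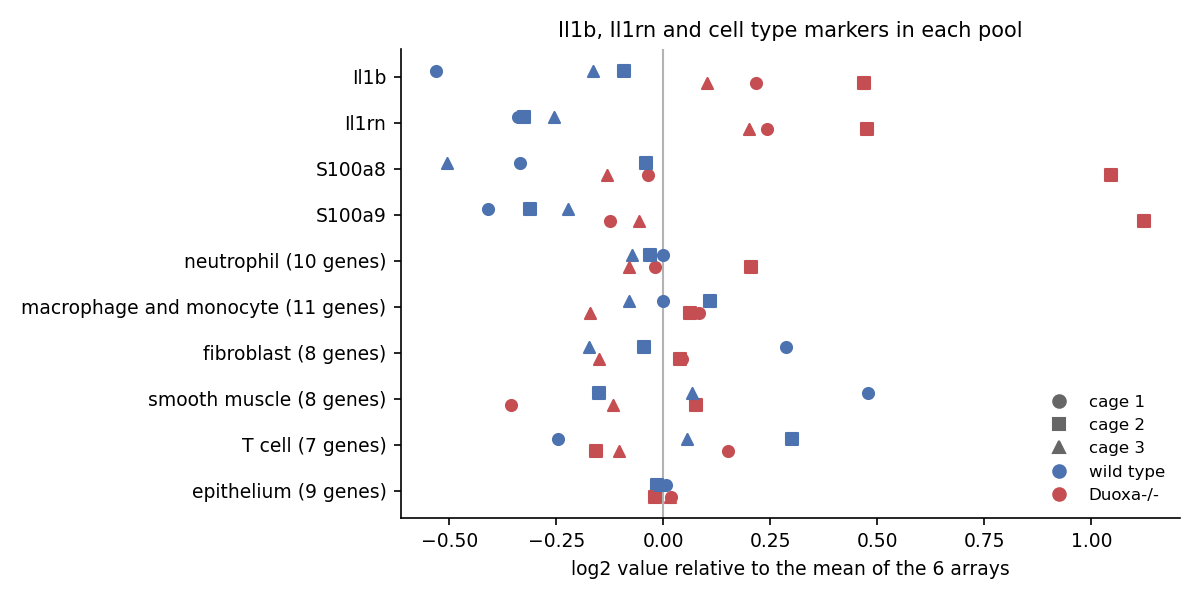
Log2 value relative to the mean of the 6 arrays (horizontal axis) of Il1b, Il1rn, S100a8 and S100a9 and, for cell types, of the mean over the measured markers, 1 point a pool. Wild-type points all lie left of Duoxa-/- points for Il1b, Il1rn and S100a9, the Duoxa-/- pool of cage 2 is far to the right for S100a8 and S100a9, and macrophage and monocyte markers overlap.

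The genes whose pattern over the 6 arrays was most like that of Il1b, among 11607 other genes reaching the median of all probe sets, were Usp39, Gpn1, Trmt10c, Spc24 and Psma3, with Pearson's r of 0.991 to 0.998 and Spearman's rho of 0.943 to 1. For Il1rn they were Pf4, G3bp2, Tceal9, Vegfc and Septin11, with r of 0.983 to 0.995 and rho of 0.829 to 1. Without the 2 pools farthest from the median, the wild-type pool of cage 1 and the Duoxa-/- pool of cage 2 for each, r lay between 0.950 and 1 for Il1b and between 0.963 and 0.999 for Il1rn. With only 6 arrays, which share cages in pairs, r exceeded 0.9 for 546 genes with Il1b and for 136 genes with Il1rn, so a high r marks no single gene. The like genes differed between genotypes by less than the members themselves, by 0.12 to 0.29 for those of Il1b and by 0.11 to 0.27 for those of Il1rn.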

How the data were processed

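RNA was extracted with TRIzol, labelled with biotin and hybridised to 1 single-colour array a pool, per the labels' protocols. The deposited values are log2 RMA summaries, for which the submitters' processing notes name the affy package without a version. Of 45101 rows, 64 controls were dropped, the platform annotation named 1 gene for 34945 of the others, several for 932 and none for 9160. The probe set of highest mean stood for each of 18193 genes, and RefSeq identifiers, matched for 18032, changed 0 symbols.

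Differences were fitted with lmFit and eBayes of limma 3.58.1 (R 4.3.3) over the 6 arrays, with no cage term and a two-sided threshold of 0.05 on Benjamini-Hochberg adjusted p, across all genes and, for probe sets other than the brightest of a gene, across 45037 probe sets. Adjusted p values are limma's. Python 3.11.15, pandas 2.3.3 and matplotlib 3.10.9 made tables and figures. Fits were tried on simulated data with changes larger than those of the members, so recovery of differences of the members' size was not tested. P values set a difference against the spread between pools, moderated over all genes, and not against that between single animals.

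The design text states that each cage held 1 litter, so same-cage pools are paired. Across genes, their deviations from the genotype means had r of -0.18, 0.16 and 0.34 in cages 1, 2 and 3.

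The members, lists and alternatives were chosen with earlier results of these data known. The text names every member, the 3 genes of smallest p in each pathway list and the 5 genes most like Il1b and Il1rn. Il1rap, Myd88, Casp1 and the S100 genes were added after their values were seen. Promoters were searched over the 250 bases before the start. Protein sequences and the Il1rl1 gene were not analysed here.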

Additional observations from a re-analysis of the deposited data

How the results depend on the processing

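Between genotypes 0 genes passed under the alternatives tried, with cage as a replicate block included, except that 1 gene, Duoxa2, did when cage 3 lost its wild-type pool or was left out whole, so that leaving out single pools gave 0 to 1. The block left the differences of Il1b at 0.52 and Il1rn at 0.61, with SE of 0.11 and 0.10, and changed no call. Il1b stayed higher in Duoxa-/- pools under all 17 alternatives (0.39 to 0.65) and Il1rn under all 19 (0.32 to 0.69). Leaving out pools could not change either sign, since every Duoxa-/- pool lay above every wild-type pool by the probe sets used. Several other settings refitted the same values, so these counts are no test of the direction. For Il1rn the difference moved by more than the spread between pools with the mean of its probe sets (0.43) or, chosen after seeing the data, with 1423017_a_at (0.37) or 1425663_at (0.32). Il1a (16 of 16) and Il1r2 (17 of 17) kept their sign as well, while Il18 and Il33 did so in 15 of 17, Il1r1 in 16 of 17 and Il18bp in 10 of 17.

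Between cages 2 genes passed, against 0 with the mean of all probe sets, only genes reaching the median, or quantile normalisation again, 4 with arrays centred on their median and 21 with trended, robust eBayes. Leaving out single pools gave 0 to 53: 30, 0 and 22 without the wild-type pools of cages 1, 2 and 3, and 53, 0 and 2 without the Duoxa-/- pools. No member passed under these alternatives, the lowest adjusted p being 0.061 for Il18bp without the Duoxa-/- pool of cage 1. The cause of these changes was not tested. Raw intensities were not used here, so signal over background is unknown.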
